A study of Mus musculus with 8 samples.

Results

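The genes described here are 6 grouped under the electrical excitability of the muscle surface membrane, the sarcolemma. Scn4a and Clcn1 encode the main sodium and chloride channels of the skeletal muscle fiber. Atp1b1 and Atp1b4 encode β-type subunits of the Na/K-ATPase family, though the Atp1b4 product is not part of the pump in placental mammals. Fxyd1 and Fxyd5 encode small membrane proteins that regulate the Na/K-ATPase. The 6 genes were taken by gene name, and all were found among the 15433 genes of the deposited table. RNA-Seq was performed on gastrocnemius (GST) muscle of 6-month-old female mice, with 4 WT and 4 STIM1+/D84G libraries. STIM1+/D84G mice carry 1 mutant copy of Stim1, whose D84G exchange lies in the EF hand with which STIM1 senses Ca2+ in the sarcoplasmic reticulum, so that store-operated Ca2+ entry is constitutive. The mutant allele is in the mouse line as a whole and is not driven by a muscle promoter. The methods describe the WT mice as age- and sex-matched C57BL/6 controls, and no group received an agent. The labels of the mutant libraries say only SAX, and that SAX stands for STIM1+/D84G was taken from the series title. A point mutation is not visible in a gene count, so the level of Stim1 could not be used to check this.

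An action potential in a muscle fiber rises when the voltage-gated sodium channel NaV1.4, the product of Scn4a, opens. The chloride channel ClC-1, the product of Clcn1, then carries the large resting conductance that steadies and repolarizes the membrane, and its loss leaves fibers that fire repetitively, as in myotonia. The Na/K-ATPase restores the sodium and potassium gradients after each run of action potentials. It is built of a catalytic α subunit and a β subunit that folds the α subunit and carries it to the membrane. FXYD proteins bind this complex and tune its affinity for ions. Fxyd1 encodes phospholemman, which restrains the pump until it is phosphorylated, and Fxyd5 encodes dysadherin, which is also known for weakening adhesion between cells. The product of Atp1b4, called βM, resembles a β subunit, but in placental mammals it is found in the inner nuclear membrane of muscle cells and not in the pump.

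RefSeq promoter windows (build GRCm38.p6, 250 bases before to 50 bases after the annotated start) matched all 6 genes. The windows of the sodium and chloride channel genes, which fell together, and of the β-type subunit genes, which rose, are shown so that the start regions of members that moved the same way can be read side by side. Capitals mark matches, on either strand, to the E-box CANNTG, the site of the myogenic bHLH factors, and to the consensus of MEF2, and windows with no match are in lower case throughout.
Scn4a, chr11:106349341-106349640, minus strand: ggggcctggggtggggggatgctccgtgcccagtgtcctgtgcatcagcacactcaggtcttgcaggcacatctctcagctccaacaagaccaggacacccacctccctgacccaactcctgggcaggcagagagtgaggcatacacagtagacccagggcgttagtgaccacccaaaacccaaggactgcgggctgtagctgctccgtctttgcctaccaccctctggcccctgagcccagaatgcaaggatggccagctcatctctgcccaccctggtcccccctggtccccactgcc
Clcn1, chr6:42286435-42286734, plus strand: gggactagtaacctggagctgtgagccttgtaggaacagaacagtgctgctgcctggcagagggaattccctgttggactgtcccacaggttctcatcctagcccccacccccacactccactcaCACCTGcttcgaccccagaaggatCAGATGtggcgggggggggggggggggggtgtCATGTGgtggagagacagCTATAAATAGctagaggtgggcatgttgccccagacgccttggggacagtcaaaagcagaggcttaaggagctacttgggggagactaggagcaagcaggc
Atp1b1, chr1:164458306-164458605, minus strand: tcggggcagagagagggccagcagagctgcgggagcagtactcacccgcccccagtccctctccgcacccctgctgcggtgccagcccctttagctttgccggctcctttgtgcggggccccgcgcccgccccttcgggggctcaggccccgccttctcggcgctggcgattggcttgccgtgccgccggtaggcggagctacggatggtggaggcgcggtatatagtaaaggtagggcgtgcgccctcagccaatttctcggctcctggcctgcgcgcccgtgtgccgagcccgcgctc
Atp1b4, chrX:38315872-38316171, plus strand: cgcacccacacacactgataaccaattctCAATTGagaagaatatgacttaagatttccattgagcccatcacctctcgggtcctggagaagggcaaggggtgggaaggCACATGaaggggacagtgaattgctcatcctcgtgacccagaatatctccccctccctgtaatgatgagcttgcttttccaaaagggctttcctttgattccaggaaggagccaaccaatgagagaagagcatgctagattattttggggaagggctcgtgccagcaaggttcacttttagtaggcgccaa

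The Clcn1 window held 3 E-boxes and 1 MEF2 match, which ended 41 bases before the start, and the Atp1b4 window held 2 E-boxes. Neither motif was found in the windows of Scn4a, Atp1b1 and Fxyd1, and the Fxyd5 window held 1 E-box. Of 32851 RefSeq windows of the same length, 72.3% held an E-box and 3.19% a MEF2 match, so the MEF2 letters in the Clcn1 window were the less common feature. The core of the NFAT site, GGAAAA, was found 1 time in the Atp1b4 window and 2 times in the Fxyd5 window, and 23.4% of all windows held it. The MCAT motif CATTCC was in none of the 6 windows and in 14.7% of all windows. The Atp1b1 window stood out for its base composition, with 31 CG dinucleotides and 71.0% G or C, where the other 5 windows held 3 to 6 CG dinucleotides and the median of all windows was 7. The Scn4a and Fxyd1 windows lie inside the longer gene models of GENCODE, whose first exons start further upstream. A match of letters is a description of these windows and not a measured site.

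Expression is given as normalized counts, which are the reads of a gene after division by the size factor of the library, with no correction for gene length. The 8 libraries held between 27481177 and 35018732 reads in listed genes, and 1 read was worth between 0.783 and 1.21 normalized counts. Skeletal muscle fiber markers dominated every library, as the label of the tissue says, and summed to 8813776 to 9354128 normalized counts in WT versus 4919234 to 5579427 in STIM1+/D84G libraries. The study used 4 mice of each genotype. The test between the genotypes sets their difference against the spread within genotypes among these 8 libraries. All 6 members passed the test between the genotypes (limma, Benjamini-Hochberg adjusted p under 0.05 over all genes), where 49.4% of all 15433 genes passed, and the members were chosen with such results known. With the deposited scaling, Scn4a, Clcn1 and Fxyd1 were lower, with 24.4% of all genes, and Atp1b1, Atp1b4 and Fxyd5 were higher, with 25.0%. Scaling the libraries to their totals moved all genes up, with their median shifted by 0.35 on the log2 scale, which turned the small decrease of Fxyd1 into an increase. Relative to the median of all genes Fxyd1 was at −0.245 under both scalings. In all 6 genes the 4 WT values did not overlap the 4 STIM1+/D84G values, which was true of 46.0% of all genes.

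**Figure D1:**
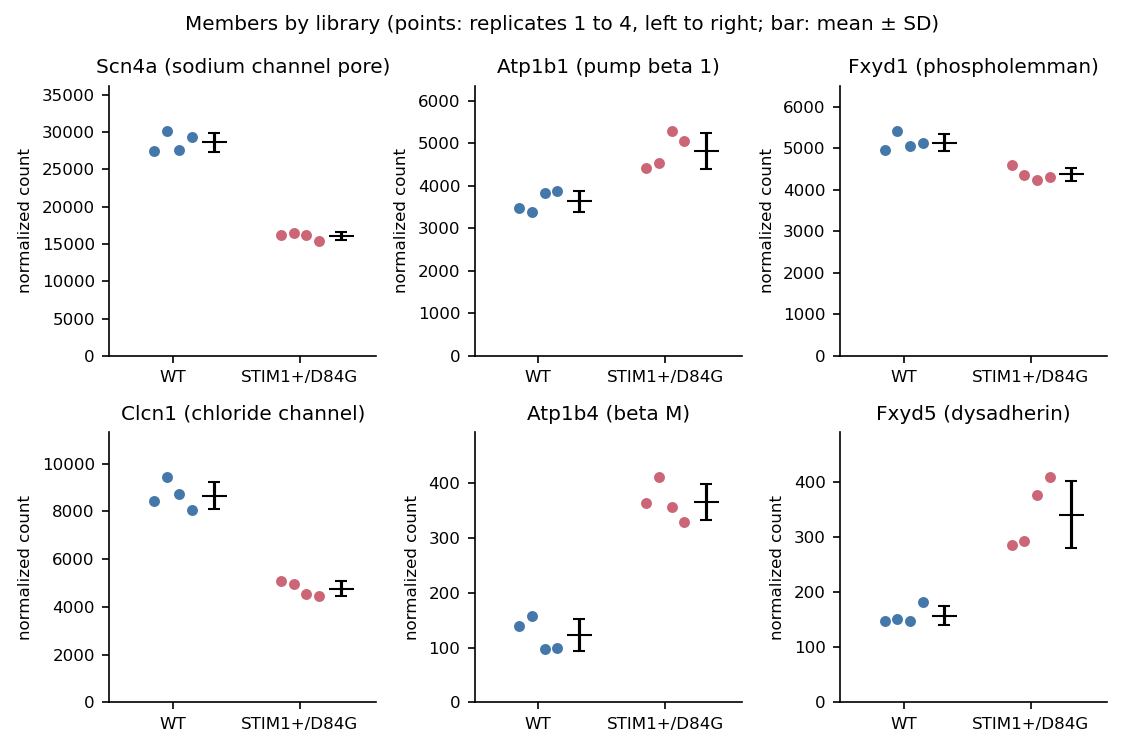
Normalized counts (y axes, from 0) of the 6 members in 4 WT (blue) and 4 STIM1+/D84G libraries (red). Points are libraries in the order of replicates 1 to 4 and black bars are the mean ± SD of the 4 libraries. Scn4a, Clcn1 and Fxyd1 were lower and Atp1b1, Atp1b4 and Fxyd5 higher in every STIM1+/D84G library with this scaling, and Fxyd1 was higher by 0.12 on the log2 scale when libraries were scaled to their totals.

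Scn4a was the most abundant member and ranked 118 of 15433 genes by mean normalized count. WT replicates 1 to 4 held 27466, 30150, 27644 and 29284 normalized counts, and STIM1+/D84G replicates 1 to 4 held 16269, 16498, 16207 and 15348. The mutant libraries were tightly grouped, and even the highest of them lay far below the lowest WT library. Scn4a averaged 28636 ± 1300 (SD, n = 4) in WT versus 16080 ± 504 (SD, n = 4) in STIM1+/D84G muscle. This was a log2 fold change of −0.83 ± 0.046 (SE) with a 95% interval of −0.93 to −0.73 and an adjusted p of 3.1e-07 (limma), so that 0.562 of the WT level remained. The gene spans chr11:106318592-106353288 on the minus strand (mm10), and its exons span 7.04 kb when overlapping exons are merged. Per exonic kb, Scn4a held 4067 normalized counts in WT and 2284 in STIM1+/D84G muscle.

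Clcn1 fell by nearly the same proportion. WT replicates 1 to 4 held 8428, 9420, 8713 and 8064 normalized counts, and STIM1+/D84G replicates 1 to 4 held 5093, 4958, 4551 and 4459. Every mutant library was thus well under every WT library, with a spread of similar relative size in both genotypes. Clcn1 averaged 8656 ± 574 (SD, n = 4) in WT versus 4765 ± 308 (SD, n = 4) in STIM1+/D84G muscle, a log2 fold change of −0.86 ± 0.058 (SE; 95% interval −0.99 to −0.73, limma adjusted p = 1.3e-06). The gene lies at chr6:42286685-42315756 on the plus strand (mm10), and 445 bases of its span overlap Fam131b on the other strand. Fam131b held only 14.9 to 64.0 normalized counts in these libraries.

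No change was detected in the ratio of the sodium and chloride channel RNAs to each other. Within each library, the ratio of Clcn1 to Scn4a, both per exonic kb, was 0.357 to 0.409 in WT versus 0.364 to 0.406 in STIM1+/D84G muscle. The log2 ratio differed by −0.03 (exact permutation test, two-sided, p = 0.657, adjusted p = 0.734 over the 19 ratios and shares computed). A p that misses the threshold does not show that the ratio is the same, but the WT range enclosed every mutant value. Clcn1 fell against Atp1b1 in the same library, from a ratio of 1.18 to 1.58 in WT to one of 0.488 to 0.656 in STIM1+/D84G muscle (exact permutation p = 0.0286, adjusted p = 0.0362). Since Clcn1 was lower and Atp1b1 higher in every mutant library, this separation follows from their own values and is no further result. This p of 0.0286 is the smallest that 4 libraries against 4 allow, and it belongs to each of the 12 ratios and shares that passed among the 13 reported here.

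Scn4a supplied nearly all of the RNA for pore-forming sodium channel subunits, with 98.6% ± 0.193 (SD, n = 4) of the counts per exonic kb of 7 listed pore genes in WT versus 96.4% ± 0.555 (SD, n = 4) in STIM1+/D84G muscle (exact permutation p = 0.0286, adjusted p = 0.0362). No other pore gene passed as lower. With Scn4a lower in every mutant library, this separation follows from its own values and is no further result. Scn4b, which encodes a β subunit of the sodium channel and was named after its values were seen, also fell, from 21872 ± 1203 (SD, n = 4) to 15239 ± 591 (SD, n = 4) normalized counts. No mutant library of Scn4b overlapped WT, and its log2 fold change was −0.52 (limma adjusted p = 1.1e-05).

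Of 15 listed sodium channel subunit genes, 11 were in the table, of which 3 rose, 3 fell and 5 did not pass, with a median log2 fold change of 0.33 beside 0.01 over all genes. Those that rose were low. Scn7a, which encodes the sodium-sensing channel NaX, increased from 311 ± 35 (SD, n = 4) to 482 ± 79.4 (SD, n = 4) normalized counts, a log2 fold change of 0.62 (limma adjusted p = 0.0012). Scn2a1, a neuronal pore gene, increased from 64.4 ± 5.79 (SD, n = 4) to 102 ± 21.3 (SD, n = 4), a log2 fold change of 0.64 (limma adjusted p = 0.0051, or 0.0878 with quantile normalization). Scn3b, a β subunit gene, had a log2 fold change of 0.75 (limma adjusted p = 0.035), but its genotypes overlapped because WT replicate 3 held 62.9 normalized counts, and leaving out WT replicate 1 raised its adjusted p to 0.0902. Within this list the abundant muscle subunit genes were the ones that fell.

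Clcn1 lost share within its own family. It made up 71.8%, 72.8%, 71.7% and 69.3% of the counts per exonic kb of 8 listed CLC genes in WT and 62.0%, 61.4%, 59.7% and 59.3% in STIM1+/D84G replicates 1 to 4 (exact permutation p = 0.0286, adjusted p = 0.0362). Its share was thus lower in every mutant library, though it remained the leading gene. No other listed CLC gene fell as far, so this separation follows from the fall of Clcn1 itself and is no further result. Of 12 listed CLC channel and partner genes, 9 were in the table, and 3 rose, 4 fell and 2 did not pass (median log2 fold change −0.14). Clcn5, the gene of an endosomal chloride/proton exchanger, rose from 102 ± 6.29 (SD, n = 4) to 168 ± 10.5 (SD, n = 4) normalized counts (log2 fold change 0.72, limma adjusted p = 5.8e-05). Clcn2, which encodes a widely expressed plasma membrane channel, had a log2 fold change of 0.64 (limma adjusted p = 0.0024), and Ostm1, whose product is the partner of the lysosomal ClC-7, fell by 0.36 on the log2 scale (limma adjusted p = 1.1e-04, or 0.801 with scaling to totals).

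Atp1b1, the gene of the widespread β1 subunit, rose. WT replicates 1 to 4 held 3478, 3376, 3822 and 3872 normalized counts, and STIM1+/D84G replicates 1 to 4 held 4409, 4540, 5291 and 5063. The lowest mutant library was above the highest WT library by more than the SD of either genotype. Within each genotype, replicates 3 and 4 were higher than replicates 1 and 2. Atp1b1 averaged 3637 ± 247 (SD, n = 4) in WT versus 4826 ± 419 (SD, n = 4) in STIM1+/D84G muscle, a log2 fold change of 0.41 ± 0.067 (SE; 95% interval 0.26 to 0.55, limma adjusted p = 4.8e-04). The gene lies at chr1:164437109-164458355 on the minus strand (mm10), and 617 bases of its span overlap Nme7 on the other strand, which held 13.3 to 33.6 normalized counts.

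Atp1b4 showed the largest fold change of the 6 genes, from a low level. WT replicates 1 to 4 held 139, 157, 97.6 and 98.2 normalized counts, and STIM1+/D84G replicates 1 to 4 held 363, 410, 357 and 330. The WT libraries fell into a higher and a lower pair, but the highest of them was less than any mutant library by a wide margin. Its mean increased from 123 ± 29.8 (SD, n = 4) to 365 ± 33.3 (SD, n = 4), a log2 fold change of 1.59 ± 0.15 (SE; 95% interval 1.26 to 1.93, limma adjusted p = 1.1e-05), or 3.02-fold. The gene lies at chrX:38316184-38336769 on the plus strand (mm10). Immature and regenerating fiber markers moved with it, since 7 of 8 listed genes rose and none fell, and their sum was 2088 to 2570 normalized counts in WT and 5475 to 6436 in STIM1+/D84G libraries. Their part in the result was not tested.

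Among the β subunit genes, the rise of Atp1b1 and Atp1b4 was accompanied by a fall of Atp1b2, the gene of the β2 subunit that prevails in fast glycolytic muscle of rodents. Atp1b2 held 14872, 15637, 12732 and 13093 normalized counts in WT and 8327, 8332, 7230 and 7196 in STIM1+/D84G replicates 1 to 4. It fell in every mutant library, with a log2 fold change of −0.86 ± 0.076 (SE, limma adjusted p = 7.0e-06). Atp1b3, the gene of β3, rose by 0.26 on the log2 scale (limma adjusted p = 0.0027). Counted per exonic kb within each library, Atp1b2 made up 69.7% ± 3.15 (SD, n = 4) of β-type subunit RNA in WT versus 48.9% ± 3.88 (SD, n = 4) in STIM1+/D84G muscle. The share of Atp1b1 increased from 24.0% ± 2.88 (SD, n = 4) to 40.3% ± 3.57 (SD, n = 4). Atp1b3 went from 5.69% ± 0.449 (SD, n = 4) to 8.64% ± 0.442 (SD, n = 4), and Atp1b4 from 0.589% ± 0.111 (SD, n = 4) to 2.230% ± 0.180 (SD, n = 4). None of these 4 shares overlapped between the genotypes (exact permutation p = 0.0286, adjusted p = 0.0362 for each). All 4 separations follow from the fall of Atp1b2, the leading gene, and the rise of the other β-type genes, and are no further result. The ratio of Atp1b1 to Atp1b2 was 0.286 to 0.398 in WT versus 0.702 to 0.970 in STIM1+/D84G muscle, so β2 RNA still led in every library.

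**Figure D2:**
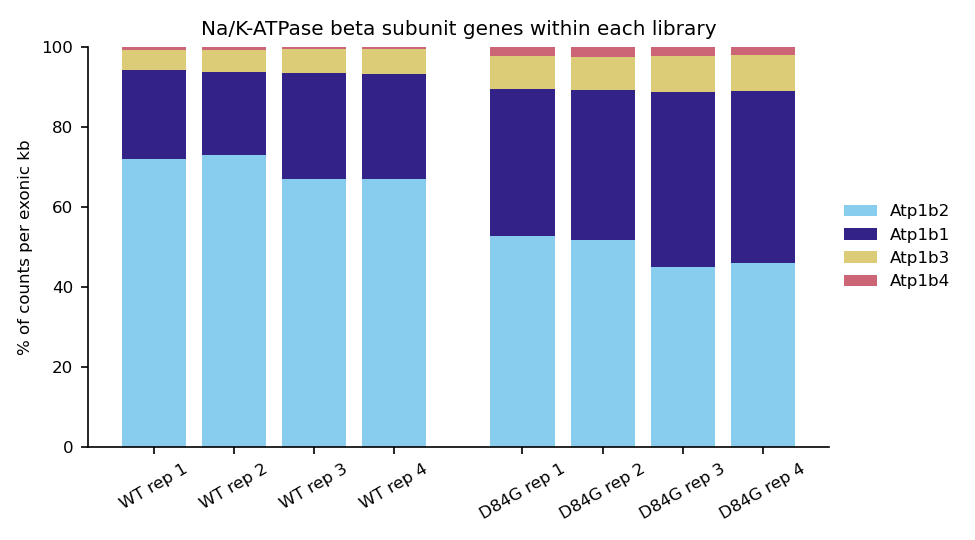
Share of each Na/K-ATPase β-type subunit gene (y axis, percent of their summed normalized counts per exonic kb) in each of the 8 libraries (x axis, 4 WT and 4 STIM1+/D84G replicates). Atp1b2 (light blue) averaged 69.7% in WT and 48.9% in STIM1+/D84G libraries, while Atp1b1 (dark blue) averaged 24.0% and 40.3%.

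Atp1a4, the gene of an α subunit best known from sperm, fell by 1.12 on the log2 scale (limma adjusted p = 0.018) at no more than 26.5 normalized counts in any library, and its adjusted p was 0.055 without WT replicate 2. Of all 8 subunit genes, 3 rose, 2 fell and 3 did not pass (median log2 fold change 0.07).

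Fxyd1, the gene of phospholemman, showed the smallest change of the 6 genes, small enough for its sign to turn when a scaling moved all genes together. WT replicates 1 to 4 held 4950, 5415, 5065 and 5115 normalized counts, and STIM1+/D84G replicates 1 to 4 held 4585, 4366, 4244 and 4297. The genotypes were separate, with the highest mutant library under the lowest WT library by more than the SD of either genotype. Fxyd1 averaged 5136 ± 198 (SD, n = 4) in WT versus 4373 ± 150 (SD, n = 4) in STIM1+/D84G muscle, a log2 fold change of −0.23 ± 0.041 (SE; 95% interval −0.32 to −0.14, limma adjusted p = 8.0e-04). With quantile normalization it was −0.048 (limma adjusted p = 0.354), and with libraries scaled to their totals it was 0.12 (limma adjusted p = 0.0162). The shift with totals was common to all genes, and relative to their median Fxyd1 was at −0.245 with totals and at 0.020 with quantiles. The gene lies at chr7:31051678-31057199 on the minus strand (mm10).

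Fxyd5, the gene of dysadherin, rose in every mutant library. WT replicates 1 to 4 held 147, 152, 147 and 182 normalized counts, and STIM1+/D84G replicates 1 to 4 held 285, 292, 377 and 408. The mutant libraries spread more widely than the WT libraries, and the lowest of them was still far above WT replicate 4. Its mean increased from 157 ± 16.7 (SD, n = 4) to 341 ± 61.2 (SD, n = 4), a log2 fold change of 1.10 ± 0.12 (SE; 95% interval 0.83 to 1.38, limma adjusted p = 3.5e-05). The gene lies at chr7:31032722-31042481 on the minus strand (mm10), close to Fxyd1, which is on the same strand. The microRNA gene Mir7050 overlaps the span of Fxyd5 by 60 bases and was not listed.

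Within the FXYD family Fxyd1 lost share. Fxyd1 made up 86.4% ± 0.712 (SD, n = 4) of the counts per exonic kb of 6 listed FXYD genes in WT versus 80.3% ± 1.80 (SD, n = 4) in STIM1+/D84G muscle. Fxyd5 made up 1.38% ± 0.142 (SD, n = 4) and 3.27% ± 0.612 (SD, n = 4). The shares of Fxyd1 and Fxyd5 differed without overlap (exact permutation p = 0.0286, adjusted p = 0.0362 for each), yet phospholemman RNA remained predominant. With Fxyd1 lower and Fxyd5 higher in every mutant library as deposited, these separations follow from their own values and are no further result. Fxyd6, a family member best known from brain, rose by 0.28 on the log2 scale (limma adjusted p = 0.0043). Its share, computed after its values were seen and not tested, went from 10.8% ± 0.439 (SD, n = 4) to 14.3% ± 1.42 (SD, n = 4), so that Fxyd6 gained more of the family than Fxyd5 did. Of the 6 listed genes, Fxyd5 and Fxyd6 rose, Fxyd1 fell with the deposited scaling but rose with scaling to totals, and 3 did not pass (median log2 fold change 0.37).

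Markers of other cell types moved with the genotype, and in whole muscle more cells of a type and more RNA per cell cannot be told apart. All 8 listed macrophage markers rose, with a sum of 2238 to 2705 normalized counts in WT and 6407 to 10646 in STIM1+/D84G libraries. All 7 fibro-adipogenic progenitor and fibroblast markers rose, with a sum of 24556 to 34744 in WT and 47504 to 58224 in STIM1+/D84G libraries. The 3 listed T and B cell markers rose from a sum of 4.82 to 11.3 to one of 28.8 to 51.1, while the B cell markers Cd79a and Ms4a1 were not listed. Of 7 endothelial markers, 2 fell and 5 did not pass (8251 to 10611 normalized counts over all libraries). Of 6 smooth muscle and pericyte markers 2 rose, of 6 Schwann cell markers 1 rose, and of 3 listed erythroid markers 2 rose, while none of these fell. These values stand beside the increases of Fxyd5 and Atp1b1, and their part in them was not tested.

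Markers of the fibers themselves also moved, beside the decreases of Scn4a, Clcn1 and Atp1b2. Of 8 fast fiber markers 7 fell and 1 did not pass, with a sum of 6725841 to 7285532 normalized counts in WT and 3561512 to 4329671 in STIM1+/D84G libraries, led by the type IIB myosin gene Myh4 and the fast calcium pump gene Atp2a1. All 8 slow fiber markers rose, from 52598 to 76044 to between 127014 and 194790. Relative to the mean log2 level of the 8 fiber markers, of which 7 fell and 1 rose, Scn4a fell by 0.25 and Clcn1 by 0.28 on the log2 scale, with no overlap (exact permutation p = 0.0286 each, a scaling chosen after the data were seen). Of these 8 markers 3 are also in the fast list, and relative to the other 5 (Acta1, Ckm, Mb, Ttn and Neb) Scn4a fell by 0.42 and Clcn1 by 0.45 (exact permutation p = 0.0286 each, also chosen after the data were seen). Mb is the marker that rose (log2 fold change 0.35), while Acta1, Ckm, Ttn and Neb fell by 0.46, 0.66, 0.70 and 0.59. Mb thus weighs more in the mean of the 5 than in that of the 8, and a reference without Mb was not computed. Relative to all 8, Atp1b1 was higher by 0.99, Atp1b4 by 2.18, Fxyd5 by 1.68 and Fxyd1 by 0.35, and relative to the 5 these values were 0.82, 2.01, 1.52 and 0.18 (exact permutation p = 0.0286 each). For Atp1b1, Atp1b4 and Fxyd5 this p adds no support, since they rose while the marker means fell. The mean of the 8 markers itself fell by 0.58 and that of the 5 by 0.41 on the log2 scale, and the part of fiber composition in the members' changes was not tested.

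**Figure D3:**
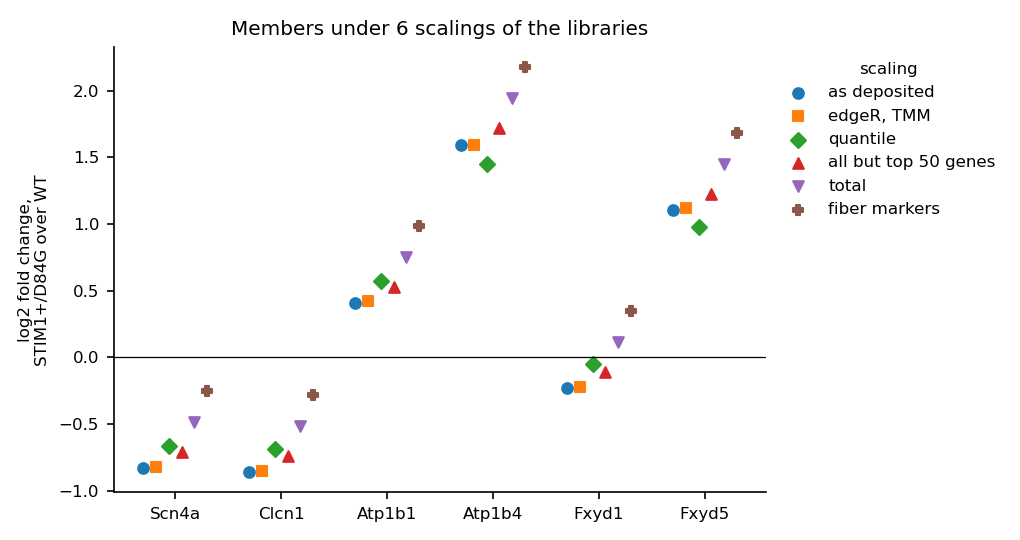
Log2 fold change of STIM1+/D84G over WT (y axis) for each member (x axis) under 6 scalings of the libraries, each with its own symbol. Scn4a and Clcn1 stayed below 0 and Atp1b1, Atp1b4 and Fxyd5 above 0 in all 6, whereas Fxyd1 ran from −0.23 as deposited to 0.35 relative to fiber markers.

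The column names of the table carry a number that WT replicates 1 and 2 share with STIM1+/D84G replicate 1, and another that the remaining 5 libraries share. What it stands for is not given in the sources used here. Within the first and the second set of libraries, respectively, the log2 fold changes were −0.82 and −0.83 for Scn4a, −0.81 and −0.85 for Clcn1, 0.36 and 0.36 for Atp1b1, 1.30 and 1.89 for Atp1b4, −0.18 and −0.24 for Fxyd1 and 0.93 and 1.12 for Fxyd5. The direction of all 6 members was the same in both sets with the deposited scaling.

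Across the 6 lists of related genes, 60 genes were in the table, of which 20 rose and 17 fell. With scaling to totals these were 39 and 8, and when the 50 most abundant genes were left out of the scaling they were 27 and 14. Among 14 listed sodium channel anchors and regulators, 3 rose, 3 fell and 8 did not pass (median log2 fold change −0.04). Sptb, the gene of the muscle and erythroid β spectrin, fell from 20088 ± 672 (SD, n = 4) to 12509 ± 541 (SD, n = 4) normalized counts, a log2 fold change of −0.68 (limma adjusted p = 9.4e-07). Sntb1, the gene of β1-syntrophin, fell by 0.66 (limma adjusted p = 0.0044, or 0.109 with scaling to totals), while Sntb2, the gene of β2-syntrophin, rose by 0.38 (limma adjusted p = 0.0070), both on the log2 scale. Fgf11, whose product belongs to the intracellular factors that bind sodium channels, rose by 0.82 on the log2 scale (limma adjusted p = 2.0e-05).

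Of 12 listed genes for other sodium and chloride transporters, 6 rose, 4 fell and 2 did not pass (median log2 fold change 0.23). Slc4a4, the gene of a sodium bicarbonate cotransporter, held 1260, 1298, 1213 and 1524 normalized counts in WT and 591, 610, 511 and 557 in STIM1+/D84G replicates 1 to 4. Every mutant library was under every WT library, and the log2 fold change of −1.22 ± 0.078 (SE, limma adjusted p = 8.2e-07) exceeded that of Clcn1. Ano5, whose product acts in the repair of the muscle membrane, fell by 0.62 on the log2 scale (limma adjusted p = 3.3e-06). Slc12a4, the gene of the potassium chloride cotransporter KCC1, rose by 0.64 (limma adjusted p = 1.1e-05), and Lrrc8d, a subunit gene of the volume-regulated anion channel, rose by 0.63 (limma adjusted p = 9.5e-04).

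**Figure D4:**
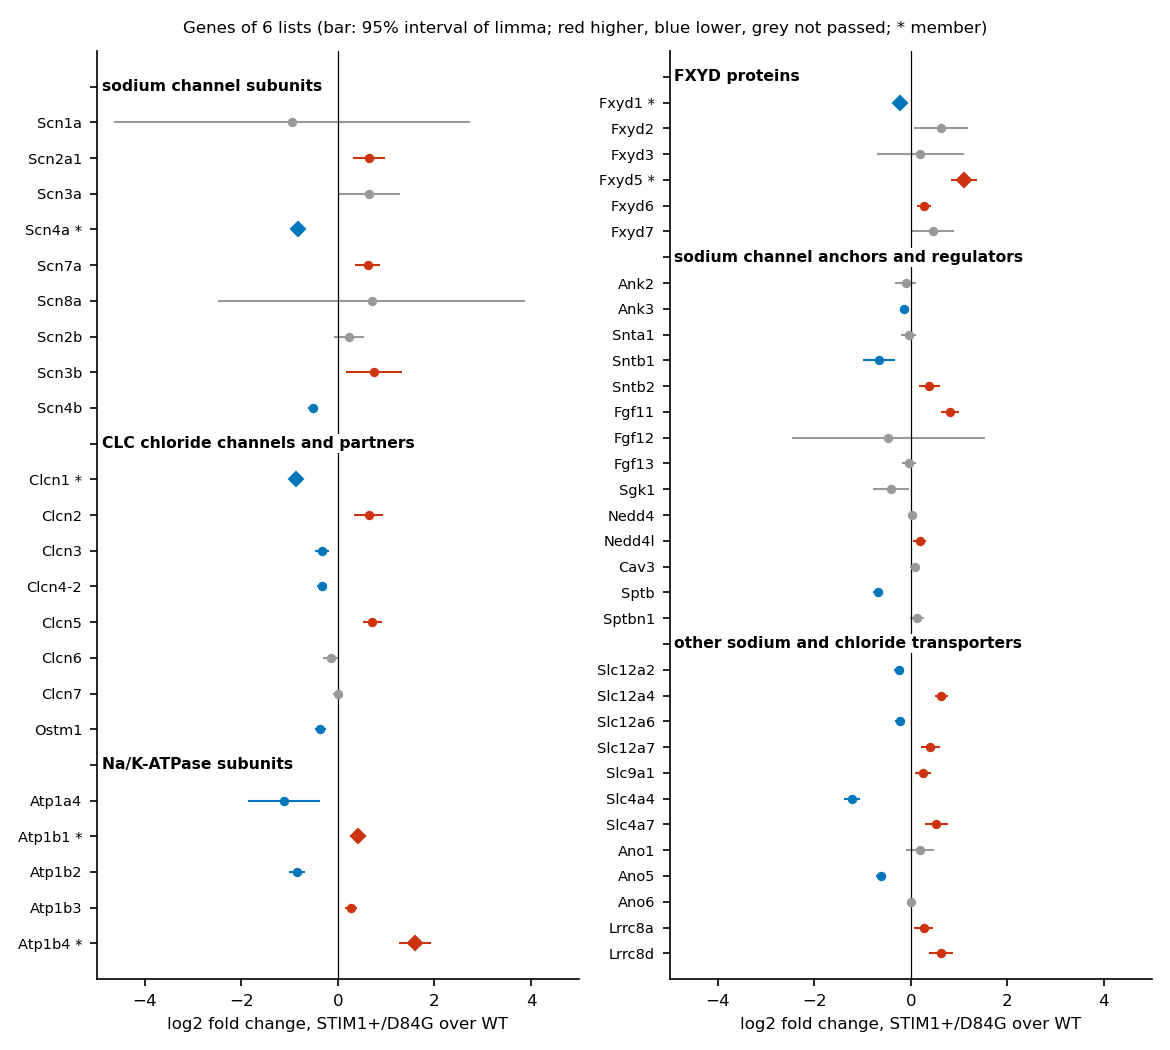
Log2 fold change of STIM1+/D84G over WT (x axes) with its 95% interval for 54 of the listed genes (rows). Red genes passed as higher, blue as lower and grey did not pass, and diamonds with an asterisk are the members. The 19 red and 16 blue genes include Slc4a4 at −1.22 and Atp1b4 at 1.59, and Fxyd1, blue here at −0.23, was at 0.12 with scaling to totals.

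The genes whose levels over the 8 libraries were most like those of each member, among 10155 genes with a mean of at least 100, are given as a description, since the difference between genotypes enters every such correlation. For Scn4a they were Kpna6 (Pearson r = 0.9996), R3hdm2 (0.998) and Bag6 (0.998), and for Clcn1 Eif5a (0.999), Rnf150 (0.998) and Smtnl2 (0.997). For Atp1b1 they were Slc39a14 (0.995), Sema5a (0.990) and Sestd1 (0.990). Atp1b4 was most like Azin1 (0.994), Slc7a1 (0.993) and the desmin gene Des (0.993). For Fxyd1 they were Pde7b (0.993), Slc37a4 (0.992) and Ube2k (0.988), and for Fxyd5 Aim1 (0.995), Tgfbr3 (0.992) and the versican gene Vcan (0.992). High correlations do not mean changes of like size, since Eif5a averaged 5358 and 4838 normalized counts in WT and STIM1+/D84G muscle, a much smaller fall than that of Clcn1.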

How the data were processed

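RNA of GST muscle from 8 mice was sequenced, per the methods with the Kapa Stranded mRNA Kit and per the labels with a SMARTer kit. The labels give mm10, and the aligner, the counter and the annotation are not given in the sources used here. The deposited table holds signal values that the authors made by dividing read counts by 1 size factor per library, since 100% of the values were whole multiples of 1 read within 0.01. Its columns of fold, log2 fold change, standard error, statistic, p value and adjusted p value are the authors' own comparison and were not used.

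The test was that of limma 3.58.1 (R 4.3.3; linear fit, then moderated with a mean-variance trend, two-sided), applied to log2(normalized count + 0.1), with Benjamini-Hochberg adjustment over all 15433 genes. Fold changes of low genes on this scale depend on the added 0.1 and can differ from the ratio of the group means in either direction. Scn8a, for example, had a log2 fold change of 0.70 but a ratio of means of 0.672. For the low member Atp1b4 the log2 fold change was 1.59 with a pseudocount of 1 and 1.60 with one of 0.01. The minimum mean of 0.5 removed no gene, because the smallest mean was 1.10, and 47 genes share a name with another. Ratios and shares used counts per exonic kb (merged exons of GENCODE vM21, GRCm38) and exact permutation tests over the 70 assignments. On the recovered reads, edgeR 4.0.16 (quasi-likelihood, TMM) called 3953 genes higher and 3608 lower, and DESeq2 1.42.0 called 3522 and 3487. Other alternatives changed the pseudocount, the filter and the scaling, added the replicate number or the number in the column names, or left out each library. Only the limma fit was tested on simulated counts with known changes. Shares and figures used Python 3.11.15, pandas 2.3.3, numpy 2.4.6, scipy 1.17.1 and matplotlib 3.10.9.

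The members and gene lists were chosen with earlier results of these data known. Named are the 6 members, up to 4 other genes per list with the largest change among those that passed, the genes of the ratios, up to 2 abundant genes per marker list, and the 3 genes most like each member, and some genes that this rule names are not reported here. They remained in the fits, the list counts, the family totals behind shares and the adjustment over 19 ratios and shares. Replicate numbers are shared between the genotypes. Same-numbered libraries correlated at 0.213, 0.161, 0.150 and 0.123 over 10155 genes once group means were removed, so the replicate numbers were taken as pairs in one alternative. However, WT replicate 2 and STIM1+/D84G replicate 1 correlated at 0.371. WT replicate 4 and STIM1+/D84G replicate 3 did at 0.222, and WT replicate 3 and STIM1+/D84G replicate 4 at 0.188. The libraries in each of these combinations share the number in the column names. WT replicates 3 and 4 also share it with STIM1+/D84G replicate 2, at −0.018 and −0.054.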

Additional observations from a re-analysis of the deposited data

Results flagged for a closer look

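In groups of 4 libraries, 1 library stood apart from the other 3 in 4 of 74 groups of values, where chance gives about 1 in 20. Fxyd5 was at 182 normalized counts in WT replicate 4 and at 147 to 152 in the other WT libraries. Fxyd6 was at 1678 in STIM1+/D84G replicate 3 and at 1388 to 1411 in the other STIM1+/D84G libraries. Fgf11 was at 146 in WT replicate 4 against 128 to 130 in the other WT libraries, and at 207 in STIM1+/D84G replicate 4 against 240 to 247 in the other STIM1+/D84G libraries. Leaving out any of these libraries changed no call of these 3 genes.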

How the results depend on the processing

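Scn4a, Clcn1, Atp1b1, Atp1b4 and Fxyd5 kept their direction and passed in all 22 alternatives, with log2 fold changes of −0.85 to −0.25, −0.89 to −0.28, 0.36 to 0.99, 1.45 to 2.18 and 0.98 to 1.68. Many of the 22 left the deposited scaling in place or nearly so, and they are not 22 separate checks. Without a filter, with the replicate block and with scaling to the median ratio, these values were as deposited. Relative to fiber markers, passing was judged by the exact permutation p of 0.0286 without adjustment. The fiber marker references could not end the calls of Atp1b1, Atp1b4 and Fxyd5, which rose while those references fell. Fxyd1 kept its call in 18 of 22, but many of these left the deposited scaling in place or nearly so. Without a filter, with the replicate block and with scaling to the median ratio over all genes, Fxyd1 was at −0.232, its value as deposited. Fxyd1 was at −0.109 when the 50 most abundant genes were left out of the scaling. It was −0.048 (limma adjusted p = 0.354) with quantile normalization, 0.12 (limma adjusted p = 0.0162) with scaling to totals, 0.35 relative to the 8 fiber markers and 0.18 relative to the 5 of them outside the fast list (exact permutation p = 0.0286 each, scalings chosen after the data were seen). Over all genes, the scaling moved the median log2 fold change by 0.35 with totals, by 0.12 with all but the 50 most abundant genes and by −0.08 with quantiles, and changes are to be read relative to that shift. Of all genes, 3859 were higher and 3765 lower, against 9480 and 761 with totals, 5318 and 2245 without the 50 most abundant genes, and 3112 and 4154 with quantiles. For the lists, totals gave 39 higher and 8 lower.

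With totals Ostm1 (limma adjusted p = 0.801), Sntb1 (0.109) and Atp1a4 (0.0614) lost their calls, and with quantiles Scn2a1 (0.0878) and Scn3b (0.233) did. The number in the column names as a factor ended the call of Scn3b (0.0526). The cause was not tested.

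With the replicate number as a block, 21 list genes were higher and 18 lower, with 3888 and 3778 over all genes, and no call of a member changed. Without 1 library at a time, Scn3b was not called in 5 of 8 fits (limma adjusted p up to 0.0915), and Atp1a4 was not without WT replicate 2 (0.0547). For ratios and shares without 1 library, 3 against 4 cannot give an exact p below 0.0571, so these are values with no test. Atp1a4, at 5.8 to 26.5 normalized counts, rests on few reads.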

Other observations

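In WT replicate 3, 3 genes of the lists, chosen after their values were seen and because of them, were high. The neuronal sodium channel genes Scn1a and Scn8a held 18.4 and 24.9 normalized counts in WT replicate 3 and at most 3.07 and 9.64 in the other WT libraries. Fgf12, whose product binds sodium channels, held 39.0 in WT replicate 3 and at most 6.03 in the other WT libraries. None of the 3 genes passed between the genotypes (limma adjusted p = 0.664 to 0.713). The 6 members' calls were the same without this library.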
